A study of Homo sapiens with 18 samples.

Results

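RNA bound to TIAR was set against RNA bound to G3BP1 in arsenite-stressed cells of the established human astrocytoma line U251-MG. RNA immunoprecipitation (RIP) pulls a protein out of a lysate with an antibody and recovers the RNA held by it. The comparison rests on 6 of the 18 exon arrays of the study, 3 that measured TIAR RIPs and 3 that measured G3BP1 RIPs. They were chosen by their sample titles, in which TIAR is called Tial after its gene TIAL1. Both groups come from cells given 500 µM arsenite and harvested after 30 min, and each array is named as a biological replicate. Whether replicates came from separate cultures is not stated in the labels, so p-values measure the spread between these samples, which may be technical. The labels name human brain as the source beside the cell line. The same pair of RIPs from cells given DMSO for 30 min (3 arrays each) and whole-lysate RNA, called input, of arsenite-treated cells (3 arrays) served for comparison. No genotype was altered in any group, and arrays of a nonspecific antibody were not analysed here.

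Arsenite is an oxidative stressor that stops the initiation of translation, and mRNAs left without ribosomes gather with proteins in cytoplasmic stress granules. TIAR, encoded by TIAL1, and its close relative TIA1 are RNA-binding proteins with 3 RNA recognition motifs that favour U-rich RNA. G3BP1 and its relative G3BP2 are RNA-binding proteins that build the core of stress granules. Both antibodies thus address proteins of the same granules, and the comparison asks which mRNAs are more abundant in one RIP than in the other after arsenite. The RIPs were made from lysate, so RNA held by either protein outside granules may be included. Granules were not measured on these arrays.

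The values are log2 signals made by the authors with RMA, which corrects background, normalises arrays to one another and combines probes. There is 1 value for each of 22011 transcript clusters, the array's unit for a gene. A single gene symbol was given for 14432 clusters, and the brightest cluster of each of 14232 genes stands for the gene below. A difference is TIAR minus G3BP1 on the log2 scale, so that 1 is a 2-fold higher signal in the TIAR RIP, and it is followed by its standard error from limma, a linear model fitted to all 18 arrays. A difference was called when its p, adjusted over all clusters by the Benjamini-Hochberg method, was under 0.05. A RIP signal gives the composition of the recovered RNA, and a change in the amount recovered cannot be told apart from a change in composition. Array replicates correlated at 0.9923 to 0.9947 within the stressed TIAR RIP and at 0.9939 to 0.9946 within the stressed G3BP1 RIP, against 0.9467 to 0.9576 between both. Array medians were 7.79 to 7.80 in the TIAR RIP and 7.97 to 8.07 in the G3BP1 RIP, so the arrays do not share one scale in full. The stressed input replicate 1 and the unstressed G3BP1 replicate 3 stood apart from their own groups (mean correlation 0.9802 and 0.9799), and neither is among the 6 arrays of the main comparison.

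The RIPs held different mRNA populations in stressed cells. Of 22011 transcript clusters, 9752 (44.3%) differed between them, 3440 (15.6%) higher and 6312 (28.7%) lower in the TIAR RIP. Among the 14232 genes, 2044 (14.4%) were higher and 4618 (32.4%) lower. With a difference of at least 2-fold as a further condition, 732 genes (5.14%) were higher and 1985 (13.9%) lower. The split depends on the scale: of the called clusters 35.3% were higher in the TIAR RIP on the deposited values, 54.5% after setting all array medians equal, 47.3% after quantile normalization of the 18 arrays and 48.1% after cyclic loess. Setting medians equal adds 0.23 to every difference. The median over all clusters was -0.05 on the deposited values, and the differences ran from -4.15 to 3.42 with 5% of clusters below -1.57 and 5% above 1.09. Among the 7758 genes at or above the median signal, 21.9% were higher and 46.4% lower, and the arrays of both groups did not overlap in 80.2% of them.

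LYPLA1, the acyl protein thioesterase that removes palmitate from proteins, had the largest difference in favour of TIAR among the genes with signal at or above the median. Its signals were 9.79, 9.97 and 9.84 in the TIAR RIP, against 6.98, 6.18 and 6.32 in the G3BP1 RIP. The groups lie far apart, with a difference of 3.37 ± 0.40, or 10.4-fold (limma adjusted p = 4.82e-06, n = 3 each). TFPI, the inhibitor of the tissue factor pathway of blood coagulation, had signals of 10.59, 10.07 and 10.45 in the TIAR RIP and 7.77, 7.64 and 7.58 in the G3BP1 RIP, a difference of 2.71 ± 0.26. F2RL2, a thrombin receptor of the protease-activated family, had signals of 10.88, 10.35 and 10.40 in the TIAR RIP and 8.06, 7.94 and 7.72 in the G3BP1 RIP, a difference of 2.63 ± 0.24. In both genes all TIAR arrays lay more than 2 log2 units above all G3BP1 arrays.

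GMFB, glia maturation factor beta, which takes apart branched actin, had signals of 11.89, 11.92 and 12.14 in the TIAR RIP and 9.65, 9.39 and 9.43 in the G3BP1 RIP, a difference of 2.49 ± 0.20. DCUN1D1, which promotes the attachment of NEDD8 to cullins, had signals of 12.13, 11.84 and 12.15 in the TIAR RIP and 9.78, 9.76 and 9.46 in the G3BP1 RIP, a difference of 2.38 ± 0.13. MANEA, a mannosidase of the Golgi, differed by 2.37 ± 0.23 and GOLT1B, a Golgi transport protein, by 2.39 ± 0.25. The remaining genes of the 15 with the largest differences in favour of TIAR encode proteins of mixed function: TLCD4 (2.90), NREP (2.51), GPR160, an orphan receptor (2.42), BBOF1 (2.38), the amino acid transporter relative SLC38A6 (2.38), the cytochrome c oxidase assembly factor COX20 (2.32), the pseudophosphatase STYX (2.27) and TEX9 (2.26). Adjusted p-values of the 15 genes ran up to 0.000622, for COX20.

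The opposite end was led by NSMCE1, a ubiquitin ligase of the SMC5/6 complex of DNA repair. Its signals were 7.54, 7.67 and 7.58 in the TIAR RIP, against 11.06, 11.07 and 10.64 in the G3BP1 RIP, a difference of -3.33 ± 0.31, which is 10.0-fold lower with TIAR (adjusted p = 3.26e-07). PSMC3, an ATPase of the proteasome's regulatory particle, had signals of 8.79, 8.95 and 8.81 in the TIAR RIP and 11.99, 12.15 and 12.05 in the G3BP1 RIP, a difference of -3.21 ± 0.12. DHPS, the enzyme that makes hypusine on the translation factor eIF5A, had signals of 10.15, 10.13 and 9.95 in the TIAR RIP and 13.04, 13.06 and 13.02 in the G3BP1 RIP, a difference of -2.97 ± 0.14. These genes had less than 0.5 log2 units of spread within each group. That their arrays do not overlap was a condition of the choice of leading genes at both ends.

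NDUFB7, a subunit of mitochondrial respiratory complex I, had signals of 8.21, 8.78 and 8.28 in the TIAR RIP, against 11.81, 11.59 and 11.79 in the G3BP1 RIP, a difference of -3.31 ± 0.21. UQCC2, an assembly factor of complex III, differed by -3.15 ± 0.23, and UQCRC1, a core subunit of the same complex, by -2.92 ± 0.16. Genes of RNA metabolism were SNUPN, the import adaptor of spliceosomal RNA particles (-3.29), ESS2, a splicing-associated protein (-2.97), and DUS2, which makes dihydrouridine in tRNA (-2.93). The others were PICK1 (-3.04), B3GAT3, which completes the linker of proteoglycan side chains (-2.97), the membrane fusion protein USE1 (-2.96), the myosin light chain MYL6 (-2.93), NCBP2AS2 (-2.93) and MAGED2 (-2.86).

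**Figure D1:**
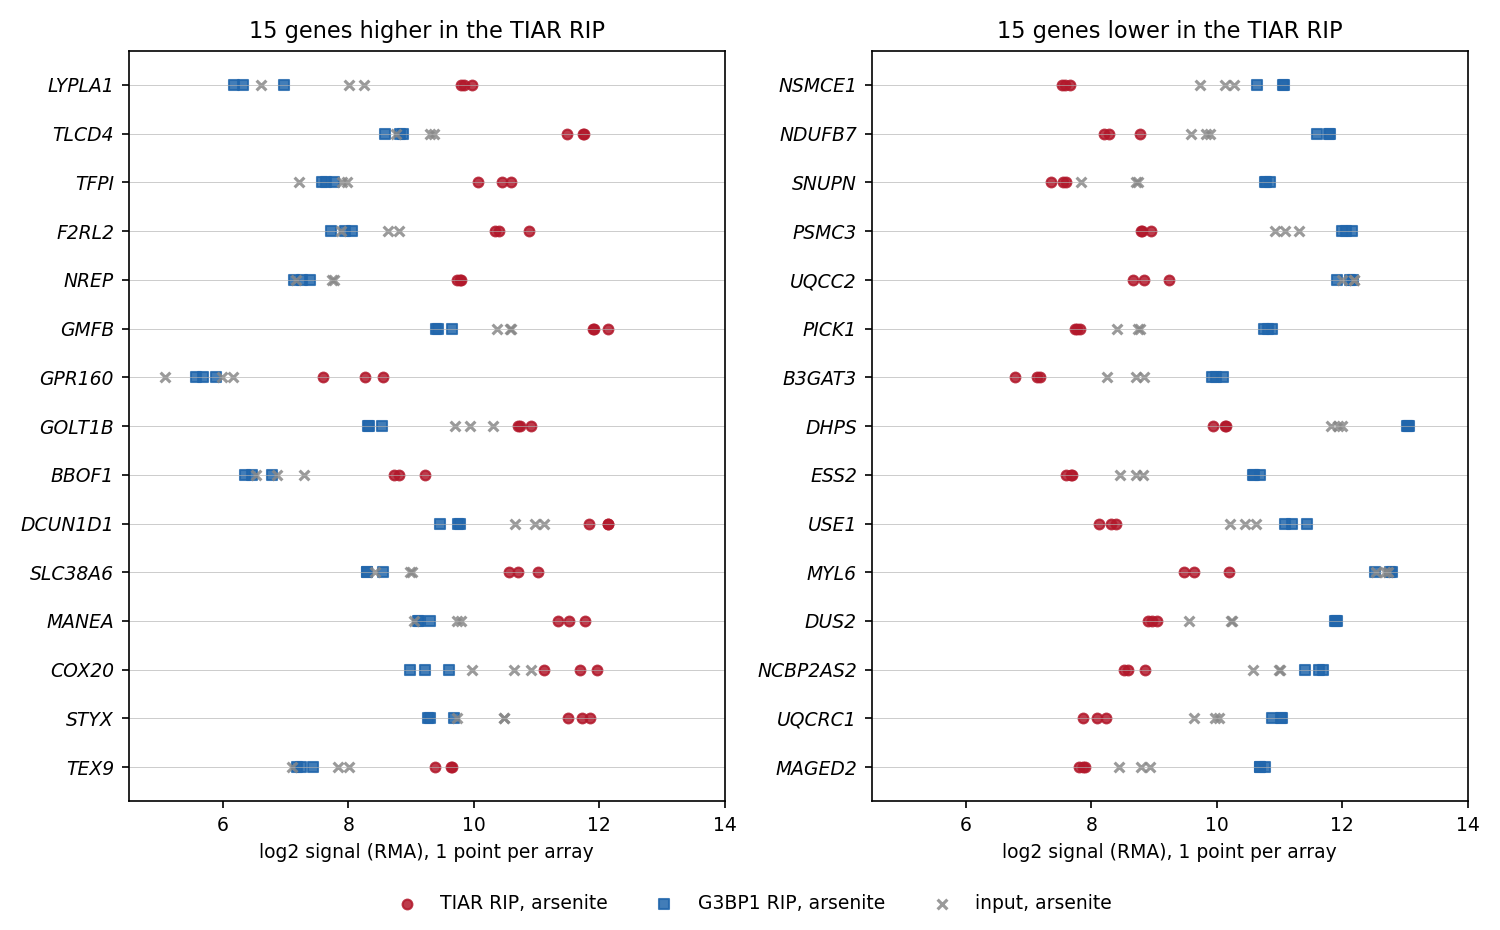
Log2 signals on single arrays for the 15 genes furthest above and the 15 furthest below zero in the TIAR minus G3BP1 difference with arsenite. Circles are TIAR RIPs, squares G3BP1 RIPs and crosses input, 3 arrays each. All 30 genes were picked among those whose TIAR and G3BP1 arrays do not overlap.

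Input of the same condition placed the leading genes differently at both ends. The TIAR and G3BP1 comparisons with input use the same 3 input arrays, so their values are only set side by side. The leading genes, and the called genes counted below, were picked on the same TIAR and G3BP1 arrays. Their place above or below input is thus in part set by that choice. Over all genes 24.4% were higher and 22.9% lower in the TIAR RIP than in input, and 35.3% were higher and 9.9% lower in the G3BP1 RIP than in input. Array medians were 7.97 to 8.07 in the G3BP1 RIP and 7.73 to 7.92 in input, so these shares may depend on the scale. The comparisons with input, here and below, were not repeated under other scalings or without input replicate 1, which stood apart. Of the 15 genes furthest above zero, 14 were higher in the TIAR RIP than in input (COX20 was not called), and in the G3BP1 RIP 6 were lower than in input and 0 higher. The median differences from input were 2.02 for TIAR and -0.42 for G3BP1. Of the 15 genes furthest below zero, 15 were lower in the TIAR RIP than in input and 13 were higher in the G3BP1 RIP than in input, with medians of -1.82 for TIAR and 1.13 for G3BP1. SNUPN shows this pattern: its signals were 7.55, 7.36 and 7.60 in the TIAR RIP, 10.85, 10.76 and 10.78 in the G3BP1 RIP, and 7.84, 8.74 and 8.71 in input. Its 3 TIAR arrays lay below all 3 input arrays and its 3 G3BP1 arrays above them.

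Over all 2044 genes called higher with TIAR, the median difference from input was 0.93 for TIAR and 0.02 for G3BP1. 1613 of them were higher in the TIAR RIP than in input, and 19 were lower. In the G3BP1 RIP 509 of them were higher than in input and 420 lower. Over the 4618 genes called lower with TIAR, the medians were -0.32 for TIAR and 0.57 for G3BP1. In the TIAR RIP 509 of these were higher than in input and 2412 lower, and in the G3BP1 RIP 3165 were higher than in input and 166 lower.

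Gene lists of cell functions were read against the shares for all genes (14.4% higher, 32.4% lower, median -0.08). These shares depend on signal. Of the 2847 dimmest genes 4.6% were higher and 5.66% lower. Of the genes at or above the median signal 21.9% were higher and 46.4% lower (median -0.26), which is the nearer measure for lists of bright genes. Aminoacyl-tRNA synthetases, which charge tRNAs with amino acids, lay lowest, with 24 of 30 lower, 3 higher and a median of -1.29. SARS1, the seryl-tRNA synthetase, had signals of 9.71, 9.46 and 9.58 in the TIAR RIP and 12.22, 12.28 and 12.17 in the G3BP1 RIP, a difference of -2.64 ± 0.13. CARS1 (-2.43 ± 0.11), AARS1 (-2.02 ± 0.10) and FARSA (-1.62 ± 0.07), the cysteine, alanine and phenylalanine enzymes, were lower as well. Each of these 4 genes had the TIAR arrays below the G3BP1 arrays.

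Lists of protein breakdown and energy metabolism lay on the same side. Of 36 proteasome subunits, 25 were lower and 3 higher (median -0.90), among them PSME1 (-2.18 ± 0.10), PSMD3 (-1.73 ± 0.12) and PSMD2 (-1.72 ± 0.11). Of 60 nuclear-encoded respiratory chain genes, 41 were lower and 2 higher (median -0.85), among them the complex I subunits NDUFV1 (-2.75 ± 0.15) and NDUFB10 (-2.68 ± 0.13). Of 66 mitochondrial ribosomal proteins, 48 were lower and 7 higher (median -0.90), with MRPS34 (-2.68 ± 0.13) and MRPL46 (-2.44 ± 0.09) as examples. Of 32 enzymes of glycolysis and the tricarboxylic acid cycle, 24 were lower and 4 higher (median -0.89). Of these, PFKP, an isoform of the glycolytic enzyme phosphofructokinase, had signals of 10.56, 10.69 and 10.55 in the TIAR RIP and 12.45, 12.43 and 12.36 in the G3BP1 RIP, a difference of -1.81 ± 0.07 with no overlap.

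Nuclear and chaperone functions followed. Of 54 spliceosome components and splicing regulators, 38 were lower and 3 higher (median -0.82), with SNRNP70, a protein of the U1 particle, at -2.55 ± 0.11 and PRPF19 at -1.96 ± 0.08. Of 56 genes of DNA replication and repair, 32 were lower and 8 higher (median -0.68). The helicase subunit MCM2 had signals of 9.14, 9.18 and 9.12 in the TIAR RIP, against 11.64, 11.66 and 11.68 in the G3BP1 RIP, a difference of -2.52 ± 0.12. Both groups were tight and far apart in MCM2, and POLD1, the catalytic subunit of DNA polymerase delta, differed by -1.94 ± 0.09. Of 28 heat shock proteins, cochaperones and chaperonin subunits, 17 were lower and 5 higher (median -0.57), with the chaperonin subunits CCT3 at -1.79 ± 0.09 and CCT7 at -1.74 ± 0.12.

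Genes for giant cytoskeletal, ubiquitin and chromatin proteins gave another pattern against input. Of 54, 33 were lower and 4 higher with TIAR (median -0.78), while their median differences from input were 0.47 for TIAR and 1.40 for G3BP1. DYNC1H1, the dynein heavy chain, had signals of 9.93, 9.91 and 9.95 in the TIAR RIP, 12.15, 12.04 and 12.14 in the G3BP1 RIP and 9.15, 9.51 and 9.65 in input. Both RIPs thus lay above input, and G3BP1 lay furthest above it. In the aminoacyl-tRNA synthetases the medians against input were -0.37 for TIAR and 0.92 for G3BP1, and in the respiratory chain -1.16 for TIAR and -0.31 for G3BP1.

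Immediate early genes, whose transcripts appear quickly after a stimulus, were lower in 19 of 29 and higher in 2 (median -0.44). JUN, a subunit of the transcription factor AP-1, had signals of 10.39, 10.16 and 10.36 in the TIAR RIP and 12.17, 12.16 and 12.01 in the G3BP1 RIP, a difference of -1.81 ± 0.11. PPP1R15A, which guides the phosphatase of eIF2 alpha, differed by -1.96 ± 0.15, and FOS, the partner of JUN, by -1.59 ± 0.13. Translation initiation and elongation factors were split, with 23 of 49 lower (46.9%) and 13 higher (26.5%). These shares were near those of genes at or above the median signal, as was the median of -0.34. The 4 factors with the smallest p (EIF3D, EIF3B, EIF3G and EEF1A2) were all lower, at -1.56 to -1.96. AU-rich cytokine and growth mRNAs, a class bound by TIA1 and TIAR in other settings, were higher in 8 of 26 (30.8%) and lower in 8 (30.8%). Of genes at or above the median signal 21.9% were higher and 46.4% lower. The list median was -0.07 on the deposited values and -0.03 after cyclic loess. It changed sign to 0.15 with equal medians and 0.02 after quantile normalization. The 4 members with the smallest p were all lower with TIAR, namely LIF (-0.79 ± 0.10), IL11 (-0.76 ± 0.12), PLAUR (-0.56 ± 0.08) and PLAU (-0.55 ± 0.08).

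Of the lists of cell functions, the RAB GTPases had the highest median on the deposited values. This rank depends on the scaling. The list of stress granule proteins lay above the RAB list after quantile normalization (0.451 against 0.303) and cyclic loess (0.426 against 0.34). RAB GTPases direct vesicle traffic, and 21 of 48 were higher and 11 lower with TIAR (median 0.33, and 0.28 to 0.55 over all settings tried). RAB14 had signals of 12.49, 12.56 and 12.71 in the TIAR RIP, against 11.33, 11.24 and 11.31 in the G3BP1 RIP, a difference of 1.29 ± 0.10. RAB2B differed by 1.85 ± 0.19, while RAB24 (-1.79 ± 0.16) and RAB15 (-0.95 ± 0.10) went the other way. Of 300 solute carriers, 67 were higher and 54 lower (median 0.04), and with equal medians 133 were higher and 42 lower. Of 225 olfactory receptors, which are seldom expressed outside the nose, 5 were higher and 5 lower (median 0.01), and with equal medians 29 were higher and 0 lower by the same limma test.

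The remaining lists held called genes in both directions. Of 305 ZNF zinc finger genes, 47 were higher (15.4%) and 106 lower (34.8%) with TIAR, shares near those of all genes. The list median was -0.125, and 0.10 with equal medians. Among the higher genes was ZNF280C, with signals of 12.45, 12.38 and 12.49 in the TIAR RIP and 10.28, 10.08 and 10.19 in the G3BP1 RIP. Its groups lie over 2 units apart, while ZNF777 (-1.56 ± 0.10) lay on the other side. Of 49 ZBTB, ZSCAN and ZKSCAN regulators, 8 were higher (16.3%), such as ZBTB6 (1.73 ± 0.15), and 17 lower (34.7%), such as ZBTB17 (-1.02 ± 0.09). These shares too were near those of all genes. Of 49 deubiquitinases, 10 were higher and 18 lower, and the histone H2A deubiquitinase USP3 (12.16, 12.18 and 12.37 in the TIAR RIP and 10.76, 10.73 and 10.71 in the G3BP1 RIP) lay opposite to USP5 (-2.10 ± 0.11), which takes apart free ubiquitin chains. Of 30 genes of endoplasmic reticulum translocation, glycosylation and folding, 12 were higher and 15 lower. There TRAM1, a membrane protein of the translocation site, had signals of 12.25, 12.35 and 12.40 in the TIAR RIP and 10.54, 10.34 and 10.44 in the G3BP1 RIP, while the folding factors HYOU1 (-1.27 ± 0.10) and PDIA4 (-1.25 ± 0.12) were lower with TIAR. Of 98 matrix genes 41 were lower and 4 higher, with the laminin chains LAMB2 (-2.03 ± 0.10) and LAMA5 (-1.75 ± 0.07) as examples. Of 70 kinesin, dynein and myosin genes 32 were lower (45.7%) and 6 higher, with nonmuscle myosin MYH9 at -1.84 ± 0.07. Of 56 histone genes 17 were lower (30.4%) and 3 higher. The lower share was near that of genes at or above the median signal for the kinesin list, and near that of all genes for the histones. With equal medians the list medians of the ZBTB (0.08), deubiquitinase (0.12), matrix (0.08) and kinesin (0.045) lists turned positive.

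**Figure D2:**
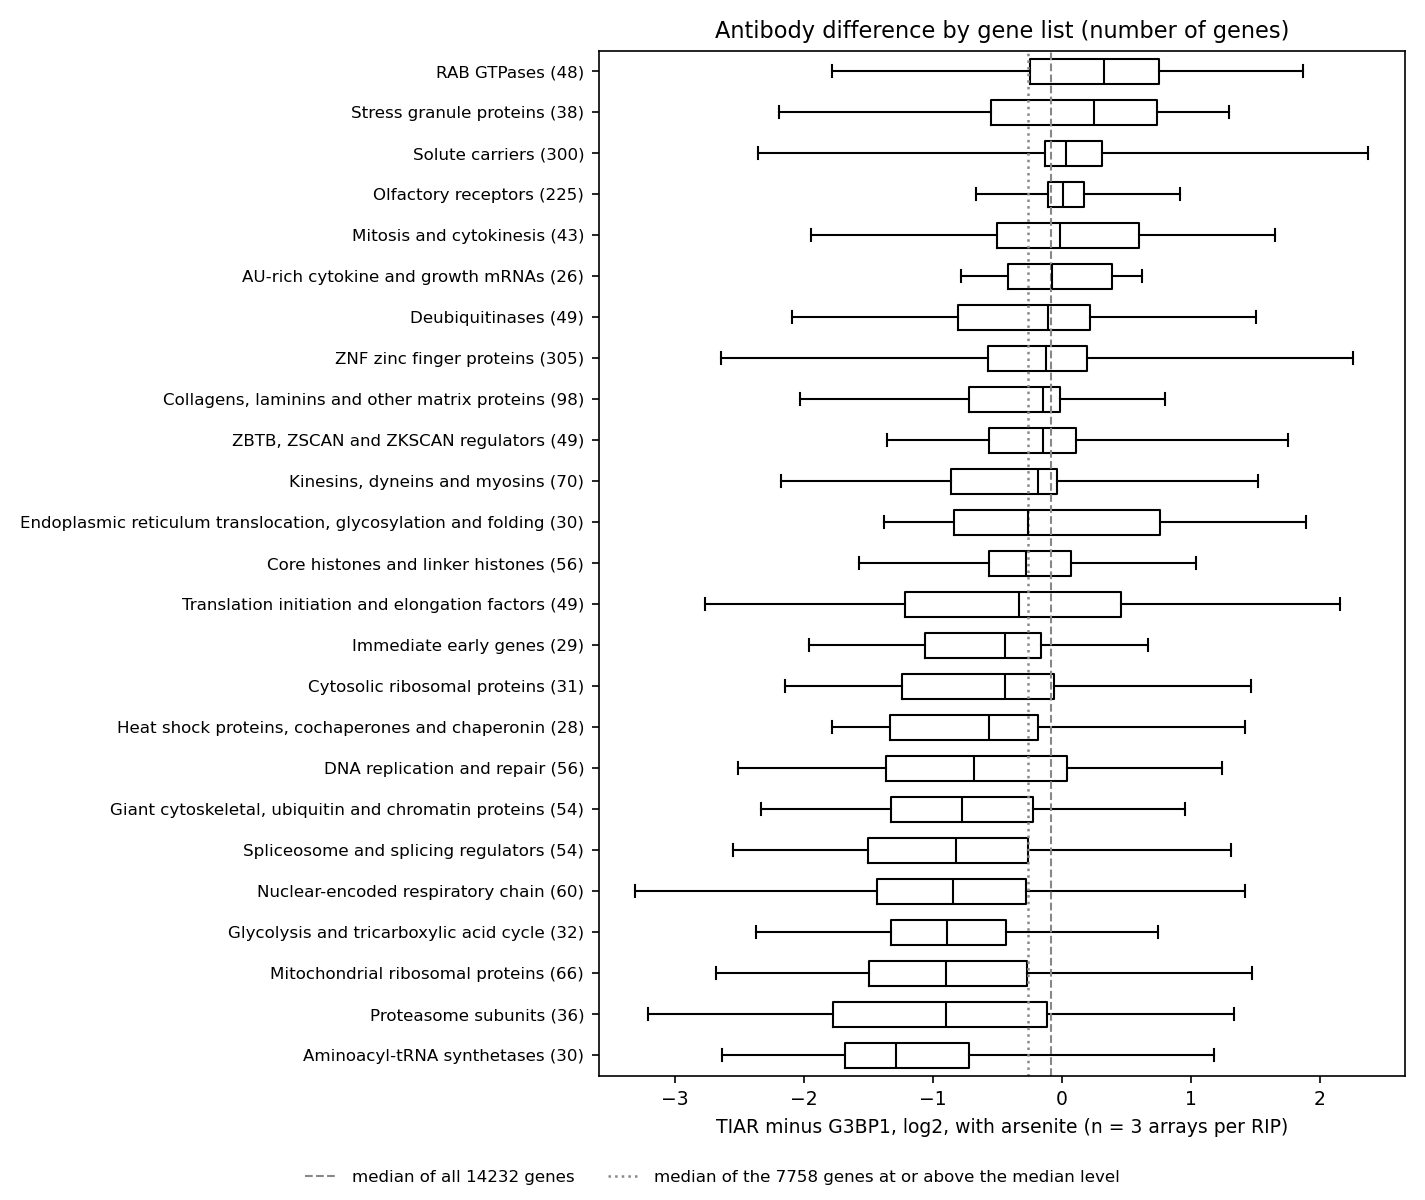
TIAR minus G3BP1 log2 differences with arsenite for each gene list, with the number of genes in brackets. Boxes span the quartiles of the genes with the median as a line and whiskers reach the lowest and highest gene; the dashed line marks the median of all 14232 genes (-0.08) and the dotted line that of the 7758 genes at or above the median signal (-0.26). On the deposited values aminoacyl-tRNA synthetases lie lowest and RAB GTPases highest.

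Among mRNAs of stress granule proteins, 17 of 38 were higher and 12 lower with TIAR (median 0.25, and 0.21 to 0.48 over all settings tried). The mRNA of TIAR's relative TIA1 had signals of 11.58, 11.23 and 11.48 in the TIAR RIP, against 10.22, 10.27 and 9.93 in the G3BP1 RIP, a difference of 1.29 ± 0.20. TIAL1, which encodes TIAR, had signals of 9.35, 9.26 and 9.33 in the TIAR RIP and 10.00, 9.81 and 9.90 in the G3BP1 RIP, a difference of -0.59 ± 0.15 that ran from -0.638 to -0.22 over all settings tried, the smallest after quantile normalization. The paralogs TIA1 and TIAL1 thus lay on opposite sides, each without overlap between the RIPs. G3BP2 had signals of 10.80, 10.52 and 10.69 in the TIAR RIP and 9.59, 9.44 and 9.45 in the G3BP1 RIP, a difference of 1.18 ± 0.15. G3BP1 differed by 0.42 ± 0.13 (adjusted p = 0.0127), and its call was lost without stressed TIAR replicate 3 (adjusted p = 0.0641) or stressed G3BP1 replicate 3 (0.0517), with a difference of 0.345 to 0.646 over all settings tried. The granule proteins with the smallest p were all lower with TIAR, namely FXR2, a relative of the fragile X protein (-2.20 ± 0.14), ZC3H7B (-1.54 ± 0.10), PRRC2B (-1.44 ± 0.12) and HDAC6, a tubulin deacetylase (-1.27 ± 0.11). The mRNAs compared are those of the granule proteins; protein was not measured on these arrays.

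The mitotic kinase AURKB had signals of 11.67, 11.96 and 11.77 in the TIAR RIP and 12.76, 12.77 and 12.63 in the G3BP1 RIP, a difference of -0.92 ± 0.08 without overlap. ECT2, which activates RhoA in cytokinesis, had signals of 10.68, 10.06 and 10.55 in the TIAR RIP and 10.52, 10.29 and 10.35 in the G3BP1 RIP. Its arrays overlapped and no difference was called (0.04 ± 0.25, adjusted p = 0.914). Mitosis and cytokinesis genes as a list were higher in 14 of 43 and lower in 9 with TIAR, with a median of -0.01 that became 0.21 to 0.27 under the other scalings. NUSAP1, a spindle protein, was higher (0.94 ± 0.10), and the kinesin KIF2C (-1.94 ± 0.19) and the protease ESPL1 (-1.49 ± 0.11) were lower.

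Cytosolic ribosomal proteins were lower in 17 of 31 and higher in 4 (median -0.44). Their mRNAs carry a pyrimidine tract at the 5′ end, a known element of translational control to which TIA1 and TIAR have been linked, so the sequence around the start was read for members of both sides. The windows below come from RefSeq on GRCh38.p14 and hold 10 bases before and 20 from the listed transcription start, with the tract in capitals; a tract is C followed by at least 4 pyrimidines (C or T) that starts within 5 bases of the listed start. The first 4 are members with the largest differences below zero that hold a tract and the last 4 all members called above zero, chosen after their values were seen.
RPS14: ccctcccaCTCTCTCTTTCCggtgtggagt
RPS25: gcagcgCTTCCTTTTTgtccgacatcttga
RPL11: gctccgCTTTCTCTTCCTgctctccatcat
RPL36: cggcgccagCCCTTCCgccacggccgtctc
RPL22: cgctcaCCTCCCTTTCTaactccgctgccg
RPL37A: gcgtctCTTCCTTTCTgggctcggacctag
RPL4: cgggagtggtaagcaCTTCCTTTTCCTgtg
RPL41: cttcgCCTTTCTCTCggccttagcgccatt
They lie at chr5:150449720-150449749 (minus strand, RPS14), chr11:119018324-119018353 (minus, RPS25), chr1:23691796-23691825 (plus, RPL11), chr19:5690285-5690314 (plus, RPL36), chr1:6199576-6199605 (minus, RPL22), chr2:216498834-216498863 (plus, RPL37A), chr15:66504836-66504865 (minus, RPL4) and chr12:56116623-56116652 (plus, RPL41). Each window spans the promoter's end and the first exon.

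The tract was present on both sides of the comparison. Of the ribosomal protein genes with a window, 21 of 27 held it, 4 of 4 that were higher and 12 of 15 that were lower with TIAR. RPS14 had signals of 10.58, 10.45 and 10.13 in the TIAR RIP and 12.54, 12.68 and 12.39 in the G3BP1 RIP, a difference of -2.15 ± 0.17. RPL41 stood at the other end with 1.47 ± 0.46, RPL4 differed by 1.12 ± 0.27 and RPS25 by -2.03 ± 0.18. Among all 11385 genes with a window, 28.8% held the tract, 30.0% of the 1712 higher with TIAR and 30.1% of the 3815 lower with TIAR. Ribosomal protein genes have many processed pseudogenes of near-identical sequence, so their array signals may include other copies. The search covers these letters in this window only. Where a gene has several listed starts, it was counted if any of its windows held the tract, so such genes had more chances.

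**Figure D3:**
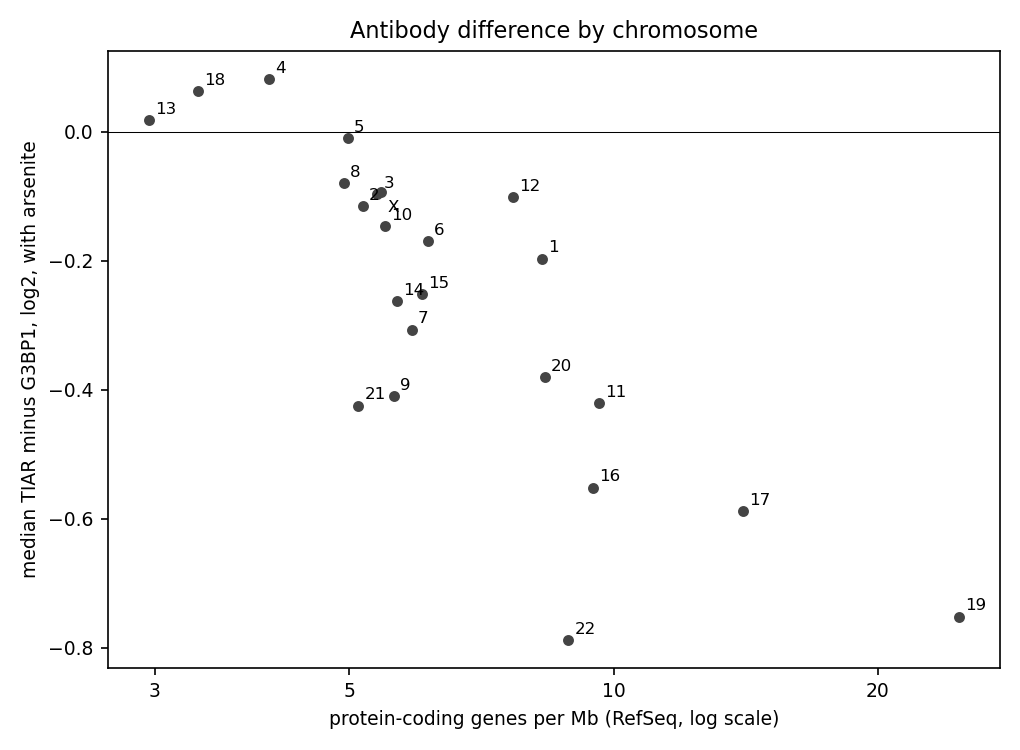
Median TIAR minus G3BP1 log2 difference with arsenite for genes at or above the median signal, by chromosome, against the density of protein-coding genes on that chromosome (log axis). Each of the 23 points is a chromosome; chromosomes 19, 22, 17 and 16 lie lowest and chromosomes 4, 18 and 13 lie at or just above zero.

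The difference also varied with the chromosome a gene lies on. Only genes at or above the median signal were taken, and of these as a whole 21.9% were higher and 46.4% lower (median -0.26). Chromosome 22 had a median of -0.79 over 177 genes (11 or 6.2% higher, 124 or 70.1% lower). Chromosome 19 had one of -0.75 over 520 genes (32 or 6.2% higher, 374 or 71.9% lower). Chromosomes 17 (-0.59) and 16 (-0.55) followed. Chromosome 4 had a median of 0.08 over 256 genes (94 or 36.7% higher, 72 or 28.1% lower). Chromosome 18 had one of 0.06 and chromosome 13 one of 0.02. All are before any rescaling, which with equal medians adds the same 0.23 to each. Over the 23 chromosomes the median was lower at a higher density of protein-coding genes (Pearson r = -0.728, Spearman rho = -0.815, and -0.743 and -0.793 without chromosome 19). This is a description over chromosomes measured on the same arrays, which differ in gene length, base composition and gene families. On chromosome 19 the median differences from input were -0.41 for TIAR and 0.34 for G3BP1, and on chromosome 4 they were 0.61 for TIAR and 0.39 for G3BP1. The share of G and C in the 300-base window around the start correlated only weakly with the difference across 6439 genes (rho = -0.06), and genes are not independent replicates. Of this window 250 bases lie before the start and 50 after it, so most of it is not part of the mRNA. The base composition of the mRNAs themselves was not tested. With 49 genes under 40% of G and C, the median was 0.46, against -0.36 in 207 genes over 80%.

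Preferences seen with arsenite were largely those seen without it. The pair of RIPs from cells given DMSO shares no array with the stressed pair, and there 10310 clusters (46.8%) were called, 4256 (19.3%) higher and 6054 (27.5%) lower with TIAR. Of the 3440 clusters higher with TIAR under arsenite, 2703 were higher without it as well, which is 78.6% of the stressed and 63.5% of the unstressed calls. Of the 6312 lower with TIAR, 5020 were lower without arsenite as well, 79.5% of the stressed and 82.9% of the unstressed calls. Opposite calls were made for 36 clusters higher and 147 clusters lower with TIAR under arsenite. Across all clusters both differences correlated at r = 0.86 (rho = 0.81), given as a description. Differences were smaller with arsenite at both ends. With it 1% of clusters lay below -2.23 and 1% above 1.72, against -2.67 and 2.29 without it. The unstressed values include G3BP1 replicate 3, which stood apart, and these limits were not recomputed without that array. All 30 leading genes kept their side without arsenite, and for example the LYPLA1 difference was 4.19 there and that of PSMC3 -4.03.

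A test of the change itself, the stressed difference minus the unstressed one, called 2994 clusters (13.6%), 1112 (5.05%) towards TIAR and 1882 (8.55%) towards G3BP1. Of the called changes 37.1% went towards TIAR, against 54.4% without unstressed G3BP1 replicate 3, which called 4035 clusters, and 54.3% of 5447 without both arrays that stood apart. With all arrays kept, it was 45.6% after quantile normalization and 49.7% after cyclic loess, so the balance of directions moved with the scaling as well as with that array. Being called only under arsenite is a weaker statement: of 701 clusters called higher with TIAR with arsenite and not without, the change was called in 109, and of 1145 called lower only with arsenite, in 374.

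**Figure D4:**
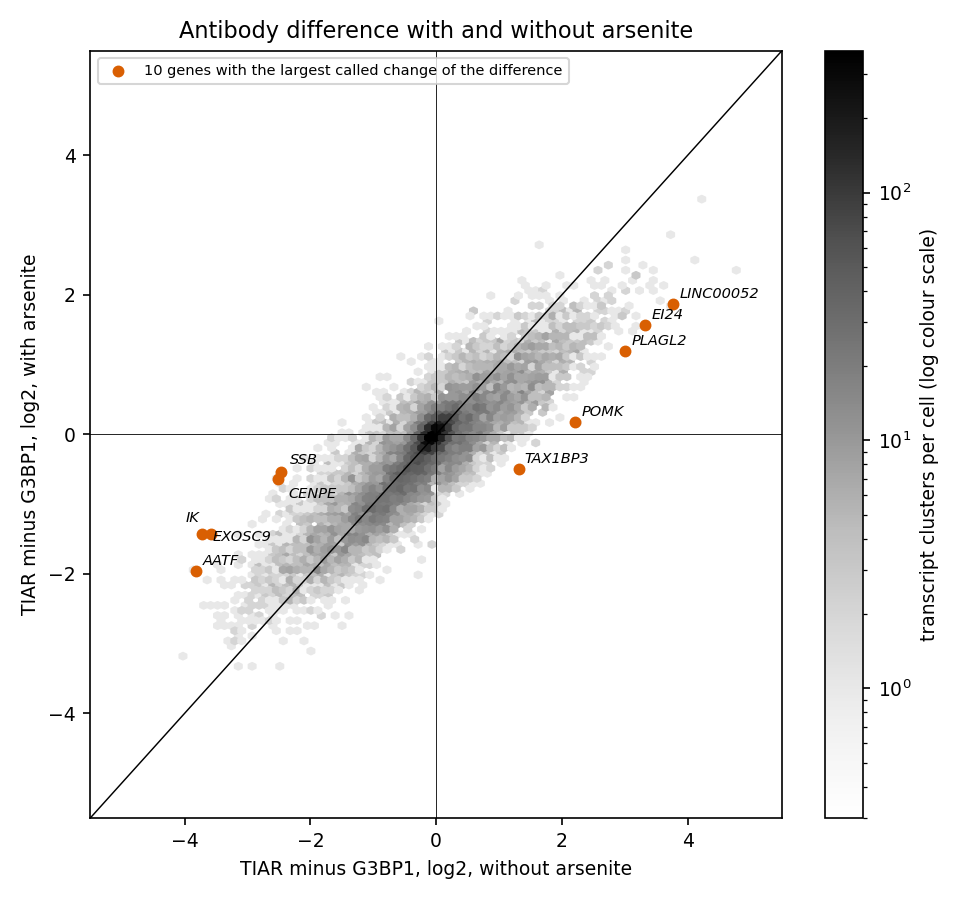
TIAR minus G3BP1 log2 differences with arsenite (vertical) against those without it (horizontal) for 14432 transcript clusters with a single gene symbol, as counts in hexagonal cells. The line marks equal differences; coloured points are the 10 genes with the largest called changes, 5 above the line (EXOSC9, IK, SSB, CENPE, AATF) and 5 below it (POMK, LINC00052, PLAGL2, TAX1BP3, EI24).

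EXOSC9, a subunit of the RNA exosome that degrades RNA, changed most towards TIAR. With arsenite its signals were 9.28, 9.09 and 9.32 in the TIAR RIP and 10.69, 10.84 and 10.46 in the G3BP1 RIP. Without arsenite they were 7.92, 7.78 and 7.67 in the TIAR RIP and 11.57, 11.59 and 11.38 in the G3BP1 RIP. The gap between the RIPs was narrower with arsenite, at -1.44 against -3.72 without it, a change of 2.29 ± 0.20 (limma adjusted p = 9.05e-06). IK, a spliceosome component (2.15 ± 0.23), SSB, the La protein that binds the ends of new small RNAs (1.92 ± 0.22), AATF, a nucleolar protein (1.86 ± 0.13), and CENPE, a kinetochore motor (1.87 ± 0.50), changed the same way. In all 5 the TIAR signals were higher with arsenite than without on every array, and the gene stayed on the G3BP1 side, though the stressed difference of CENPE was not called (-0.64 ± 0.36). That of SSB (-0.54 ± 0.16) lost its call with equal medians (-0.313, adjusted p = 0.17), after quantile normalization (0.0563), after cyclic loess (0.0666), and without stressed TIAR replicate 3 (0.0575) or stressed G3BP1 replicate 2 (0.0589). The call for CENPE was lost without stressed TIAR replicate 1 (adjusted p = 0.0612), stressed G3BP1 replicate 2 (0.0545), unstressed TIAR replicate 3 (0.0592) or unstressed G3BP1 replicate 2 (0.0537).

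POMK, a kinase of O-mannosyl glycans, changed most towards G3BP1. With arsenite its signals were 10.74, 10.62 and 10.43 in the TIAR RIP and 10.45, 10.39 and 10.41 in the G3BP1 RIP, which overlap. Without arsenite they were 11.53, 11.51 and 11.36 in the TIAR RIP and 9.43, 9.46 and 8.86 in the G3BP1 RIP, which lie about 2 units apart. The change was -2.04 ± 0.23 (adjusted p = 5.81e-05). The stressed difference of POMK, not called on the deposited values (0.18), was called with equal medians (0.404), after quantile normalization (0.37) and after cyclic loess (0.398). LINC00052, a long noncoding RNA (-1.90 ± 0.27), PLAGL2, a zinc finger transcription factor (-1.82 ± 0.24), and EI24, an endoplasmic reticulum protein (-1.76 ± 0.33), stayed higher with TIAR under arsenite by smaller differences. TAX1BP3, a PDZ domain protein, changed by -1.81 ± 0.43, and by -1.26 without both arrays that stood apart. Its unstressed G3BP1 replicate 3 had a signal of 9.32, against at least 10.94 in the other 2.

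**Figure D5:**
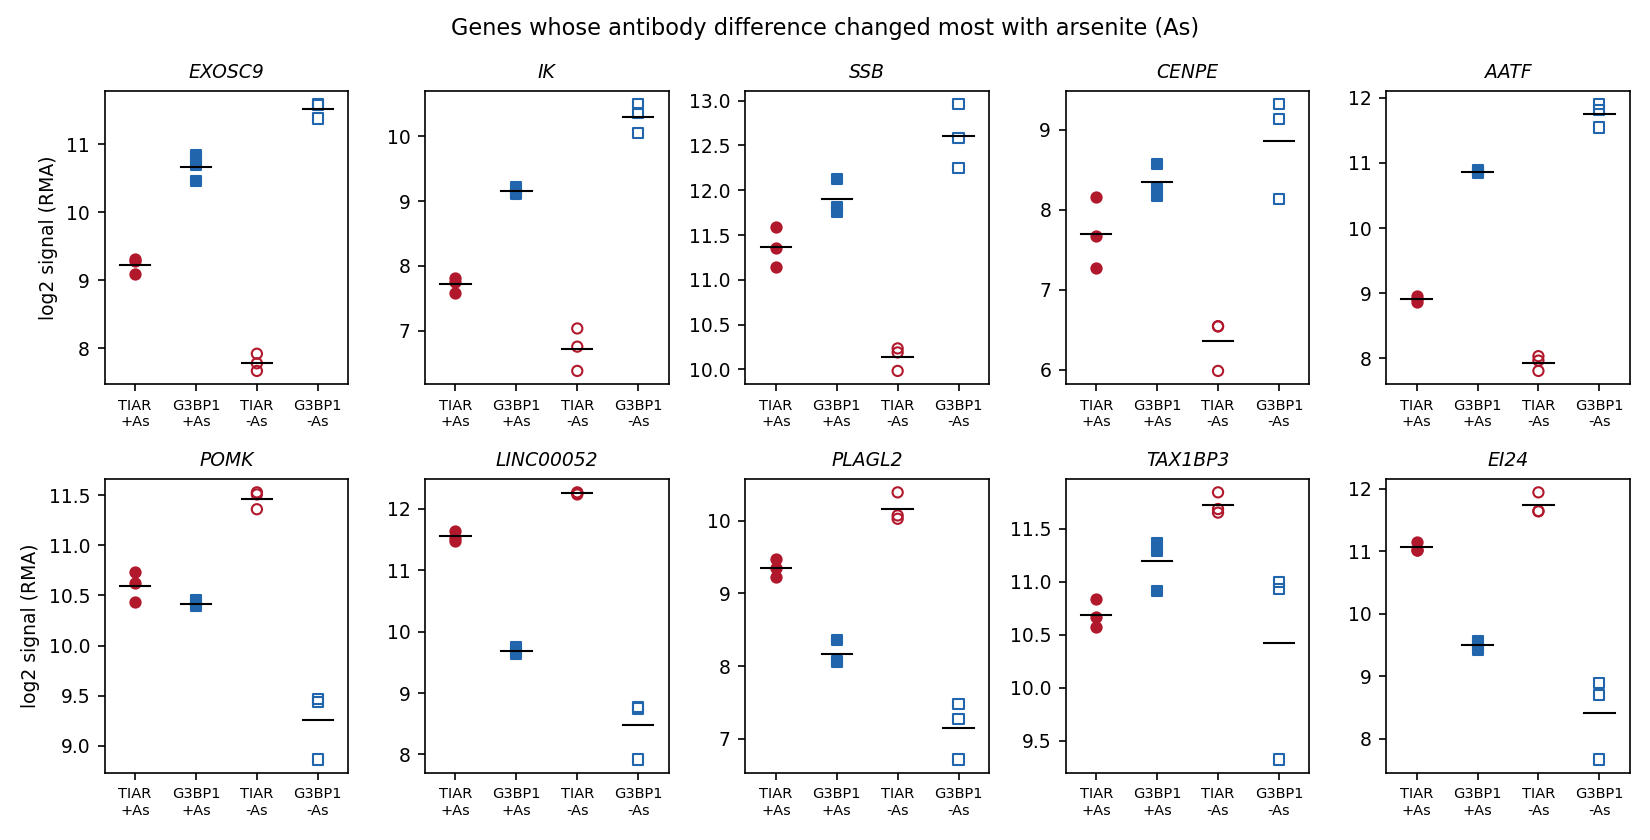
Log2 signals on single arrays for the 5 genes with the largest called change towards TIAR (top) and towards G3BP1 (bottom). Filled symbols are arsenite-treated cells and open symbols DMSO-treated cells, circles TIAR and squares G3BP1, with the mean of 3 arrays as a line; the vertical axes differ between genes and do not start at zero. In the genes of both rows the means of the RIPs lie closer together with arsenite. In TAX1BP3 the G3BP1 mean then lies above the TIAR mean.

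By list, the change went towards TIAR in several, though not all, of the groups with lower TIAR signal with arsenite or without it. It was called in 16 of 30 aminoacyl-tRNA synthetases, all towards TIAR (median change 0.64), and their median difference was -1.29 with arsenite against -2.13 without. FARSA changed by 1.08 ± 0.10. The same held for 25 of 54 spliceosome genes (with 2 the other way), 14 of 32 glycolysis and tricarboxylic acid cycle genes, 14 of 28 heat shock and chaperonin genes, 12 of 43 mitosis genes (with 1 the other way) and 11 of 56 replication and repair genes, beside 4.6% of all genes towards TIAR and 10.2% towards G3BP1. Without both arrays that stood apart these counts were 26, 34, 21, 16, 29 and 40 in the same order of lists. There 2 mitosis and 2 spliceosome genes went the other way, and the share of all genes towards TIAR was 14.1% and towards G3BP1 13.3%. The mitosis list lay lower with TIAR only without arsenite (median -0.43, against -0.01 with it). Other lower lists did not go towards TIAR. Of 60 respiratory chain genes 4 changed towards TIAR and 4 towards G3BP1, and of 54 giant protein genes 2 and 8. Without both arrays these counts were 14 and 5, and 10 and 12. HSPA5, the main chaperone of the endoplasmic reticulum, had signals of 11.62, 11.71 and 12.02 in the TIAR RIP and 13.19, 13.14 and 13.15 in the G3BP1 RIP with arsenite. Without arsenite its signals were 10.69, 10.43 and 10.57 in the TIAR RIP and 13.10, 13.08 and 12.79 in the G3BP1 RIP, so the TIAR arrays differed more than the G3BP1 arrays, and the change was 1.05 ± 0.15.

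Changes towards G3BP1, called in 10.2% of all genes, were called in 29 of 305 ZNF zinc finger genes (9.51%, with 1 towards TIAR), a share near that of all genes. They were called in 14 of 49 ZBTB, ZSCAN and ZKSCAN regulators, 44 of 300 solute carriers (5 towards TIAR), 6 of 29 immediate early genes and 6 of 26 AU-rich mRNAs. Without both arrays that stood apart, the ZNF genes had 44 (14.4%) and 14 the other way, and the solute carriers 52 (17.3%) and 13, beside the 13.3% of all genes. FOS had signals of 8.35, 8.53 and 8.49 in the TIAR RIP and 10.12, 10.23 and 9.80 in the G3BP1 RIP with arsenite. Without arsenite it had 7.94, 7.83 and 8.08 in the TIAR RIP and 7.84, 8.07 and 8.31 in the G3BP1 RIP. The RIPs overlapped without arsenite and were far apart with it, a change of -1.47 ± 0.18. IL11 was higher with TIAR without arsenite (0.49 ± 0.12) and lower with it (-0.76 ± 0.12), a change of -1.24 ± 0.16, and LIF did likewise, at -0.79 ± 0.10 with arsenite and 0.25 ± 0.10 without.

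Markers of the cell line were present in both RIPs. Of 13 astrocyte and glioma markers, 4 were higher and 4 lower with TIAR, among them CD44 (12.58, 12.71 and 12.70 in the TIAR RIP and 12.14, 11.99 and 12.10 in the G3BP1 RIP) and SOX9 (0.71 ± 0.07). NES (-1.63 ± 0.11) and GFAP (-1.39 ± 0.10), both intermediate filament genes, were lower with TIAR. Of markers of other cell types, 0 of 5 oligodendrocyte and 0 of 2 blood markers were called, 1 of 6 endothelial (KDR, -0.77 ± 0.15), 2 of 7 myeloid (CD68, 1.06 ± 0.10, and CD14, -0.49 ± 0.12), 3 of 6 neuronal and 3 of 5 epithelial markers. The keratins KRT18 (-1.97 ± 0.13) and KRT8 (-0.82 ± 0.09) were lower with TIAR and had signals above 9 on all 6 arrays. The signals of the blood marker HBB (6.66, 6.62 and 6.43 in the TIAR RIP and 6.38, 6.69 and 6.26 in the G3BP1 RIP) overlapped between the RIPs, and of the 5 oligodendrocyte markers 1 did not overlap without being called. The part of all these markers in the lists above was not tested.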

How the data were processed

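RNA of the cell line was hybridised to Affymetrix exon arrays. Per the submitters' processing notes, the authors used RMA in Affymetrix Expression Console, and the deposited numbers are on the log2 scale. The version, the probe sets summarised and any joint normalisation of the arrays: not given in the sources used here. Symbols came from the platform annotation (1 symbol for 14432 clusters, several for 2408, none for 5171). Control probe sets are not marked, so all clusters were tested.

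In limma 3.58.1 (R 4.3.3), 6 group means were fitted to 18 arrays with lmFit and eBayes (12 residual and 2.61 prior degrees of freedom), with no filter. Two-sided p-values were adjusted over 22011 clusters by Benjamini-Hochberg, and the procedure was tested on simulated data. Named genes are the 15 largest called differences in each direction (arrays not overlapping, higher group mean at or above the median), the 5 largest called changes with arsenite in each direction, up to 4 members of a list by smallest p, and TIAL1, TIA1, G3BP1, G3BP2, ECT2 and AURKB. The ribosomal genes shown by sequence were chosen otherwise, as stated there. The comparison and the lists were chosen with earlier results of these data known. The number of arrays limits the precision.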

Additional observations from a re-analysis of the deposited data

Results flagged for a closer look

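The genes below are those named by rule for which the stressed TIAR minus G3BP1 difference departed from the unstressed one in limma's test of the change (adjusted p under 0.05). Values are the log2 difference with arsenite minus that without it. All 59 were still called without both arrays that stood apart, a setting that called 5447 clusters against 2994 with all arrays. Counted over these genes and all alternative settings, a call was kept in 1191 cases and lost in 106.

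Among the leading genes, the change was towards TIAR in PSMC3 (0.81) and towards G3BP1 in TLCD4 (-0.84), NREP (-1.64), BBOF1 (-1.06), DCUN1D1 (-0.61), UQCC2 (-1.16) and USE1 (-0.84). The largest changes towards TIAR were those of EXOSC9 (2.29), IK (2.15), SSB (1.92), CENPE (1.87) and AATF (1.86), and the largest towards G3BP1 those of POMK (-2.04), LINC00052 (-1.90), PLAGL2 (-1.82), TAX1BP3 (-1.81) and EI24 (-1.76).

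Of genes for translation, the change was towards TIAR in the tRNA synthetases FARSA (1.08), CARS1 (0.91), SARS1 (0.77) and AARS1 (0.76), the factors EIF3B (0.84), EIF3D (0.77) and EEF1A2 (0.68), and the ribosomal genes RPL36AL (0.48) and MRPL46 (0.99). MRPL17 went towards G3BP1 (-0.76). Of genes for protein fate, DNAJC7 (1.24), HSPA5 (1.05), USP11 (1.04), USP5 (1.00), PSME1 (0.76), PSMD2 (0.66) and CCT7 (0.62) went towards TIAR and TRAM1 towards G3BP1 (-0.82). Nuclear and cell cycle genes that went towards TIAR were DDX23 (0.95), SF3B2 (0.82), KIF2C (0.87), POLE (0.63) and MCM5 (0.49), and the histone H2AC16 went towards G3BP1 (-0.81).

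The glycolytic genes PFKP (0.92), HK1 (0.67) and PFKL (0.51) went towards TIAR. Motor and cytoskeletal genes were split between MYO1C (0.55) and MYH9 (0.50) on one side and KIF1C (-0.65) and PLEC (-0.47) on the other. Towards G3BP1 went FOS (-1.47), IL11 (-1.24), LIF (-1.04), GAD1 (-0.78), RAB15 (-0.64), LAMA5 (-0.58), LAMB2 (-0.58), SLC39A13 (-0.55) and SLC66A1 (-0.53). The G3BP1 mRNA itself (0.73) and SOX9 (0.32) went towards TIAR.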

How the results depend on the processing

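The count of 9752 differing clusters with arsenite was 7879 to 11686 over all alternatives tried, and 8768 to 9217 when one of the 6 arrays was left out. The unstressed count of 10310 was 9464 to 10869 when one array was left out. The 30 leading genes kept their direction and call in each of the 16 settings in which they were tested. Leaving out the lowest 50% of clusters by mean removed GPR160 (mean 6.72) and BBOF1 (7.67), which were not tested there. The median over all clusters, -0.05 on the deposited values, became 0.172 with equal medians, 0.00287 with quantile-normalised arrays and 0.0179 with loess-normalised ones. The count of 2994 changes with arsenite was less stable: 6349 with array weights, 5447 without both arrays that stood apart and 1563 at an adjusted p under 0.01, and 2244 to 4035 when one array was left out. Its share towards TIAR, 37.1%, was 52.9% with array weights, 45.6% and 49.7% under quantile and loess scaling, and 54.4% without unstressed G3BP1 replicate 3. The cause was not tested. With the replicate number as a block the counts were 9520 with arsenite, 10135 without and 2660 for the change. Same-numbered TIAR and G3BP1 arrays deviated together at r = 0.153, 0.117 and -0.07 with arsenite, and at 0.35, 0.012 and 0.416 without it. The values were uneven, and the numbers were not taken as pairs in the main fit. Signal over background per array is not in the deposited values, so dim clusters are limited by an unknown floor.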
